A study of Mus musculus with 6 samples.

Results

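The genes described here encode G protein-coupled receptors of mouse brown adipocytes. They were taken by symbol from a table of 13283 genes, as every gene named for one of a fixed set of receptor families (adhesion, orphan, lysophospholipid, purine, adrenergic, serotonin, chemokine, bradykinin, angiotensin, free fatty acid and related receptors), and 73 genes were found. The rule reads names only and uses no measured value. Among the protein-coding mouse symbols of RefSeq on GRCm38, 210 match it, of which 72 (34.3%) were analysed here, and the other member, Gpr137b-ps, is not protein coding in RefSeq. By name alone the rule also takes 9 multipass membrane proteins of inner membranes, such as Gpr107 and Gpr137, that are not classical receptors, and these were kept and are described apart.

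The study compared BAT cells, an immortalized mouse brown preadipocyte line that stably expresses Cas9, after loss of MICT1, a microprotein of brown fat. The MICT1 KO group held 3 samples of knockout pools, which are mixed populations and not clones, and the Scr group held 3 samples of the same line transduced with a scrambled sgRNA. The labels do not say which sgRNA pool each MICT1 KO library came from. Cells of both groups were differentiated to brown adipocytes and on day 6 received 10 µM forskolin for 6 h, so no library shows receptors without forskolin. The study's methods call all replicates biological. The labels number the samples of a group without saying whether they were differentiated separately. The p-values thus measure the spread between these samples of one line, part of which may be technical.

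G protein-coupled receptors sit in the plasma membrane, bind a ligand outside the cell and activate a heterotrimeric G protein inside it. Gs raises cAMP and Gi/o lowers it, Gq/11 releases calcium through phospholipase C, and G12/13 acts on the actin cytoskeleton. In brown adipocytes noradrenaline acts through Gs-coupled β-adrenergic receptors on cAMP and PKA to start lipolysis and heat production, while Gi/o-coupled receptors for adenosine and for metabolites restrain it. Forskolin activates adenylyl cyclase directly and so raises cAMP without a receptor.

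The deposited values are a normalized signal per gene, close to reads divided by a size factor for the library, and every value in the table was above 0. They summed to between 16104616 and 16616825 per library. Differences were tested on log2(value + 1) with limma-trend in 12507 genes that reached a value of 10 in 3 or more libraries, with Benjamini-Hochberg adjustment over them. A gene is called here when its adjusted p was under 0.05, and fold changes are MICT1 KO against Scr after adding 1 to each value, so that those of low genes come out too small. The targeted gene, MICT1, was not analysed here, so the labels could not be checked on it. Correlations across genes were 0.987 to 0.990 within the groups and 0.929 to 0.940 between them. The groups differed in more than receptors, since 7113 genes (56.9%) were called.

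Of the 73 members, 60 passed the filter on low values and were tested. The number called was 39 (65%), against 56.9% of all genes tested, with 19 lower (31.7%, against 28.3%) and 20 higher (33.3%, against 28.5%) in MICT1 KO cells. The call together with at least a 2-fold change was met by 18 members (30%), against 13.7% of all genes tested. Of these, 6 were lower (10%, against 5.76%) and 12 were higher (20%, against 7.99%). The 3 MICT1 KO values lay wholly outside the 3 Scr values in 45 of the 60 (75%, against 62%), below them in 20 (33.3%, against 31.2%) and above them in 25 (41.7%, against 30.9%). At the fold and p of the study's methods, 1.8-fold with an unadjusted p under 0.05, 7 members were lower (11.7%, against 7.39%) and 15 higher (25%, against 10.1%). The median log2 fold change of the tested members was 0.0036, beside -0.0053 over all genes tested, while the median size of the change was 0.67 beside 0.33. These counts and medians include the 8 tested proteins of inner membranes. Over classical receptors alone the median log2 fold change was 0.37, with 16 lower and 20 higher. Receptor genes are low and noisy, and their median SD on the log2 scale within the groups was 0.21 in the Scr samples and 0.22 in MICT1 KO, beside 0.11 and 0.12 over all genes tested. Among the members named below, Adora1, Bdkrb1 and Htr1d passed the filter only through the group in which they were high, so they had to differ to be tested.

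**Figure D1:**
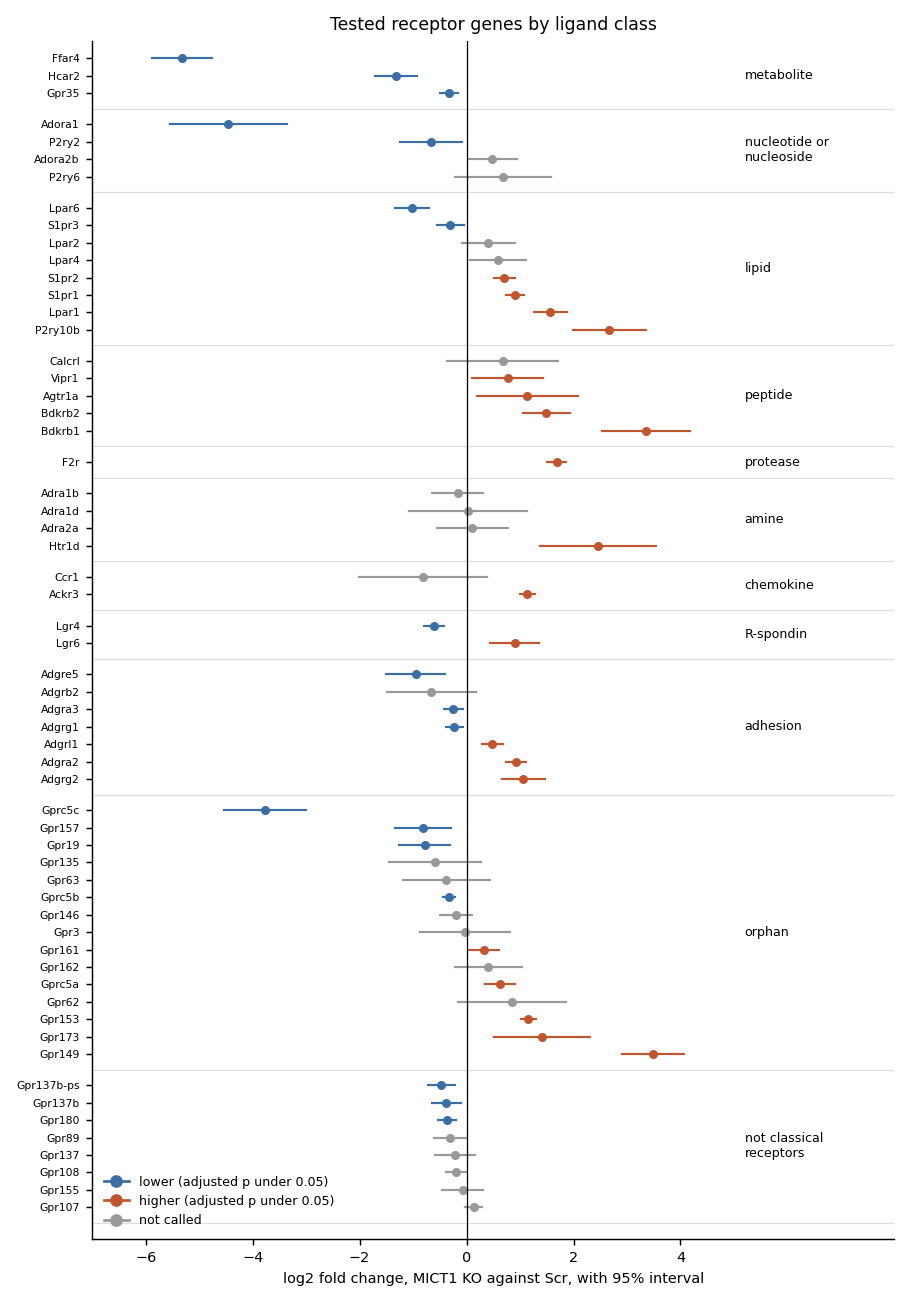
Log2 fold change (x axis, MICT1 KO against Scr, on the log2(value + 1) scale) of 59 of the 60 tested genes, grouped by ligand class, with points for the limma-trend estimate and lines for its 95% interval. The metabolite receptors lie on the lower side and the peptide receptors on the higher side, and the orphan receptors reach from -3.77 to 3.48.

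The marker genes of differentiated adipocytes moved with the groups. All 13 of that list were lower in MICT1 KO cells, against 28.3% of all genes tested. The summed RPKM of the list was 1901 to 2283 in the Scr samples and 193 to 282 in the MICT1 KO samples. Adipoq, which encodes adiponectin, was at 5.32 ± 2.24 (SD, n = 3) and Plin1, a lipid droplet coat protein, at 54.8 ± 35.6 (SD, n = 3) in MICT1 KO cells, far below their Scr means of 624 ± 139 and 2852 ± 221 (SD, n = 3). Adipoq passed the filter only through the Scr samples, so it had to differ to be tested. Of 9 preadipocyte and fibroblast genes listed, 7 were tested, and 4 were higher and 2 lower (28.5% and 28.3% over all genes tested). The summed RPKM of the 9 was 304 to 350 in the Scr samples and 541 to 579 in the MICT1 KO samples. Dcn, a matrix proteoglycan, had a log2 fold change of 4.75, and Dlk1, a preadipocyte protein, of -3.47. Among the macrophage markers 4 of 12 were listed, with a summed RPKM of 6.95 to 10.7 and 15.5 to 19.2, and Adgre1 and Ptprc were not among them. Most of that rise was Cd14, at a mean RPKM of 6.77 in Scr and 15.7 in MICT1 KO samples. It was the 1 called gene of the 4 (28.5% higher over all genes tested), and Csf1r, Cd68 and Mrc1 were not called. Of the 10 endothelial markers 2 were listed, at a summed RPKM of 0.160 to 0.218 and 0.398 to 0.5002. Smooth muscle and pericyte markers (7 of 10 listed) summed to 15.7 to 17.1 and 14.7 to 15.7, Schwann cell and neuron markers (4 of 8) to 0.955 to 2.05 and 4.63 to 5.72, and no T cell marker was analysed here. The rise of the Schwann cell and neuron sum was that of Tubb3, at a mean RPKM of 0.777 in Scr and 4.77 in MICT1 KO samples. Mbp of the same list was lower (log2 fold change -1.62). The part of these differences in the receptor results was not tested. In a culture measured as a whole, fewer cells of a type and less RNA per cell cannot be told apart.

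**Figure D2:**
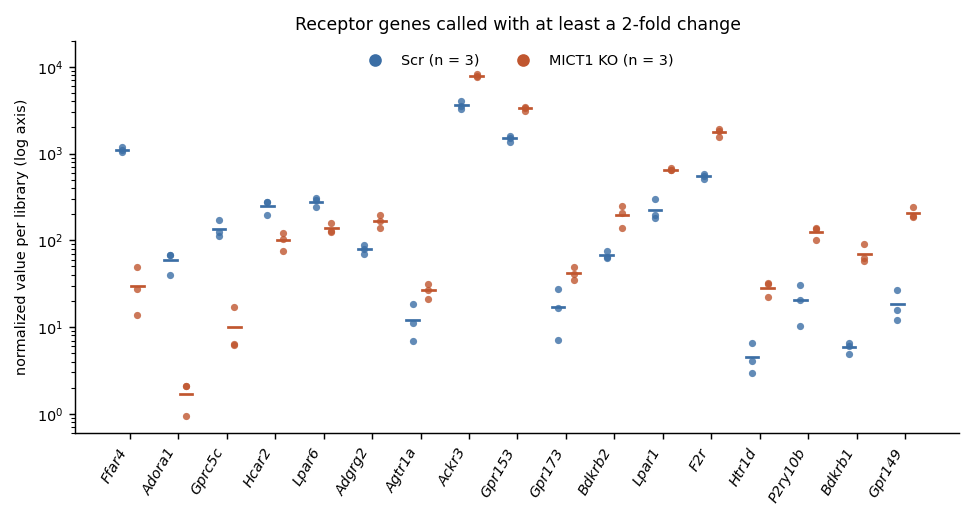
Normalized value in each library (y axis, log scale) of 17 of the 18 receptor genes called with at least a 2-fold change, ordered by fold change, with a point for each of 3 Scr and 3 MICT1 KO libraries and a line at the group mean. In each gene the 2 groups are apart, from Ffar4, 1109 against 30.0 on average, to Gpr149, 18.2 against 205.

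Receptors for metabolites and adenosine held the 2 largest falls. All 3 metabolite receptors were lower in MICT1 KO cells, against 28.3% of all genes tested. Ffar4 (chromosome 19, 38097079 to 38114263), a Gq/11-coupled receptor for long-chain fatty acids, had values of 1051, 1094 and 1181 in the Scr samples and of 27.6, 13.7 and 48.7 in the MICT1 KO samples. The groups were far apart, with a Scr mean of 1109 ± 66.3 (SD, n = 3) that was 36.9-fold the MICT1 KO mean of 30.0 ± 17.6 (SD, n = 3). The log2 difference was -5.33 (standard error, SE, 0.27, limma-trend adjusted p = 5.22e-13), the largest fall among the tested members. It lay between -5.76 and -4.88 when single libraries were left out. Per length, Ffar4 was the third of the receptors in Scr cells, at an RPKM of 48.3, and fell to 1.31.

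Hcar2 (chromosome 5, 123863570 to 123865516), the Gi/o-coupled receptor for β-hydroxybutyrate and niacin, gave 276, 197 and 274 in the Scr samples and 75.3, 120 and 105 in the MICT1 KO samples. No MICT1 KO value reached the lowest Scr value. The log2 fold change was -1.32 (SE 0.19, limma-trend adjusted p = 5.04e-06). Gpr35, for which several metabolite ligands have been proposed, was at 1236, 1504 and 1271 against 1133, 980 and 1090. That fall was smaller, with a log2 fold change of -0.32 (SE 0.08, limma-trend adjusted p = 0.00205).

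Adora1 (chromosome 1, 134199215 to 134235457), the Gi/o-coupled adenosine receptor that restrains lipolysis, was at 68.2, 39.9 and 68.2 in the Scr samples and at 0.953, 2.11 and 2.07 in the MICT1 KO samples. The MICT1 KO values correspond to a few reads in each library, and the log2 fold change of Adora1 was -4.45 (SE 0.52, limma-trend adjusted p = 3.06e-07) with the pseudocount of 1 and -3.22 with one of 5. Adora2b, the Gs-coupled adenosine receptor, was at 60.3, 75.1 and 64.1 in the Scr samples and 81.0, 94.8 and 104 in the MICT1 KO samples. Its values did not overlap, but its log2 fold change of 0.48 (SE 0.22, limma-trend adjusted p = 0.0671) was not called. Per length, Adora1 made up 21.7% ± 6.501 (SD, n = 3) of the RPKM of the 3 adenosine receptor genes in the Scr samples and 0.556% ± 0.174 (SD, n = 3) in the MICT1 KO samples, and Adora2b 76.5% ± 6.57 and 96.7% ± 0.949. Adora2a lay at values of 1.02 to 5.72 and was not tested.

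P2ry2, the receptor for ATP and UTP, was at 55.4, 85.3 and 57.0 against 41.0, 48.5 and 33.2. The log2 fold change of -0.66 (SE 0.28, limma-trend adjusted p = 0.0475) was called, but the call ended without Scr replicate 2 (-0.47), Scr replicate 3 (-0.75), KO replicate 1 (-0.67) or KO replicate 3 (-0.53), under limma-voom and with a filter at a maximum of 4 CPM (limma-trend adjusted p = 0.0570). P2ry6, the receptor for UDP, lies 21.1 kb from P2ry2 on chromosome 7 and was not called (0.67, SE 0.43, limma-trend adjusted p = 0.192), with groups that overlapped.

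The 250 bases before the annotated start of 5 of these genes are given because all cells had received forskolin, and the cAMP response element and the AP-1 site are DNA motifs known to bind factors that cAMP activates. They are Ffar4 and Adora1, which had the largest falls, F2r and P2ry10b, the holders of an AP-1 site that rose, and S1pr2, which rose and was the only member with a whole cAMP response element in the promoters read. The sequences are from RefSeq on GRCm38.p6, run 5′ to 3′ on the strand of the gene and end at the base before its start. Capitals mark a motif. Ffar4 is from chr19:38096829-38097078 on the plus strand, Adora1 from chr1:134235458-134235707 on the minus strand, F2r from chr13:95618467-95618716 on the minus strand, P2ry10b from chrX:107148677-107148926 on the plus strand and S1pr2 from chr9:20976794-20977043 on the minus strand.
Ffar4: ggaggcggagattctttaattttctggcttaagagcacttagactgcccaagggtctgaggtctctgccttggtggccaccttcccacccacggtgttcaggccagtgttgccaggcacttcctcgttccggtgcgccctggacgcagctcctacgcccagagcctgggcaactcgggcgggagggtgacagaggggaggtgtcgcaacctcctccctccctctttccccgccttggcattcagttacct
Adora1: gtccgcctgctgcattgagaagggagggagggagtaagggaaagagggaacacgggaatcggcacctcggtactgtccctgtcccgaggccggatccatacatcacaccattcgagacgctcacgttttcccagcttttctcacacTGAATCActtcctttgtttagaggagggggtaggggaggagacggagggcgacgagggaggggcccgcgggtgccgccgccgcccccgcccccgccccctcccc
F2r: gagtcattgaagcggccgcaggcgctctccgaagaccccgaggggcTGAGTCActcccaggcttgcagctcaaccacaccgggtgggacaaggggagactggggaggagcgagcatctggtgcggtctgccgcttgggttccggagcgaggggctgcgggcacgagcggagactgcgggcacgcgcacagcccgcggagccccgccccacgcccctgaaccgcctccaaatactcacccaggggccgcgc
P2ry10b: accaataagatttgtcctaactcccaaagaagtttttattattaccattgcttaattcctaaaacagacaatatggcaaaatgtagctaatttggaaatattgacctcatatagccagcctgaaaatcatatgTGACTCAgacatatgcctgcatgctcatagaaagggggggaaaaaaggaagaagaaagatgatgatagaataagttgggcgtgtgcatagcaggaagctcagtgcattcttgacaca
S1pr2: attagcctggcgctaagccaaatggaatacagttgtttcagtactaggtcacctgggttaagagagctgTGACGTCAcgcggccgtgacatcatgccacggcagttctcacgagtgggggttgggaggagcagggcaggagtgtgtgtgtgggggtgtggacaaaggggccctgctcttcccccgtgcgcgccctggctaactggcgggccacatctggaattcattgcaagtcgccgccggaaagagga

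Both strands were searched in the RefSeq promoters, from which 75 promoters of 53 members could be read. The whole cAMP response element TGACGTCA was in 1 of the 75 (1.33%), 181 bases before the start of S1pr2, and in 1.79% of all 32851 promoters. Its shorter form TGACG, which is part of the whole element, was in 19 (25.3%) against 20.8% of all promoters. The AP-1 site TGANTCA was in 9 (12%) against 7.81%, among them the promoters of Adora1, F2r and P2ry10b, at 104, 204 and 117 bases before the start. Of these 9 members 3 were lower (Adgrg1, Adora1 and Gpr35), 2 higher (F2r and P2ry10b) and 4 not called. Over all genes tested 28.3% were lower and 28.5% higher. The C/EBP palindrome TTGCGCAA and the PPAR direct repeat, AGGTCA written again after 1 base of any kind, were in none of the 75, and in 0.183% and 0.0396% of all promoters. The promoter of Ffar4 held none of these letters. A match is a run of letters and not a binding site.

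Lipid receptors went both ways, and all 8 listed were tested. In MICT1 KO cells 2 were lower and 4 higher, against 28.3% and 28.5% of all genes tested. Within the receptors for lysophosphatidic acid (LPA), Lpar1 and Lpar6 moved in opposite directions. Lpar1 (chromosome 4, 58435252 to 58554027), which couples to several G proteins, had values of 303, 179 and 197 in the Scr samples and 640, 647 and 679 in the MICT1 KO samples. Every MICT1 KO value was above every Scr value, and the log2 fold change was 1.57 (SE 0.14, limma-trend adjusted p = 9.04e-09). Lpar6 (chromosome 14, 73237891 to 73240358), of the P2Y-like branch and coupled mainly to G12/13, was at 305, 241 and 292 against 130, 123 and 159. This fall had a log2 fold change of -1.02 (SE 0.15, limma-trend adjusted p = 8.40e-06). Lpar2 (0.41, adjusted p = 0.155) and Lpar4 (0.59, adjusted p = 0.0546) were not called by limma-trend, although their groups did not overlap. Lpar4 was called with a pseudocount of 5 (limma-trend adjusted p = 0.0496) and without KO replicate 3. Per length, Lpar1 held 41.3% ± 4.71 and Lpar6 41.4% ± 3.92 (SD, n = 3) of the RPKM of the 4 LPA receptor genes in Scr cells. In MICT1 KO cells Lpar1 held 73.1% ± 0.218 and Lpar6 12.1% ± 1.33 (SD, n = 3).

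The receptors for sphingosine-1-phosphate (S1P) shifted toward S1pr1. S1pr1 (chromosome 3, 115710433 to 115715055), which couples to Gi/o, rose from 796, 782 and 685 to 1450, 1479 and 1295. The groups did not overlap and the log2 fold change was 0.90 (SE 0.08, limma-trend adjusted p = 4.56e-09). S1pr2 rose from 380, 423 and 378 to 675, 594 and 656, a log2 fold change of 0.70 (SE 0.10, limma-trend adjusted p = 2.45e-06). S1pr3 was at 724, 532 and 589 against 563, 415 and 518, with groups that overlapped. Its log2 fold change of -0.30 (limma-trend adjusted p = 0.0366) was called, and the call ended without Scr replicate 1 (-0.18), without KO replicate 2 (-0.17) and with library size as the scaling (-0.30, adjusted p = 0.0501). S1pr1 held 57.0% ± 2.49 of the RPKM of these 3 genes in the Scr samples and 70.6% ± 3.29 in the MICT1 KO samples, and S1pr3 31.6% ± 3.44 and 17.1% ± 2.46 (SD, n = 3).

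P2ry10b (X chromosome, 107148927 to 107173661), a receptor for lysophosphatidylserine, was at 30.7, 20.4 and 10.2 in the Scr samples and 138, 136 and 102 in the MICT1 KO samples. These groups were well apart, with a log2 fold change of 2.67 (SE 0.33, limma-trend adjusted p = 6.95e-07). It lies 215.0 kb from Lpar4.

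**Figure D3:**
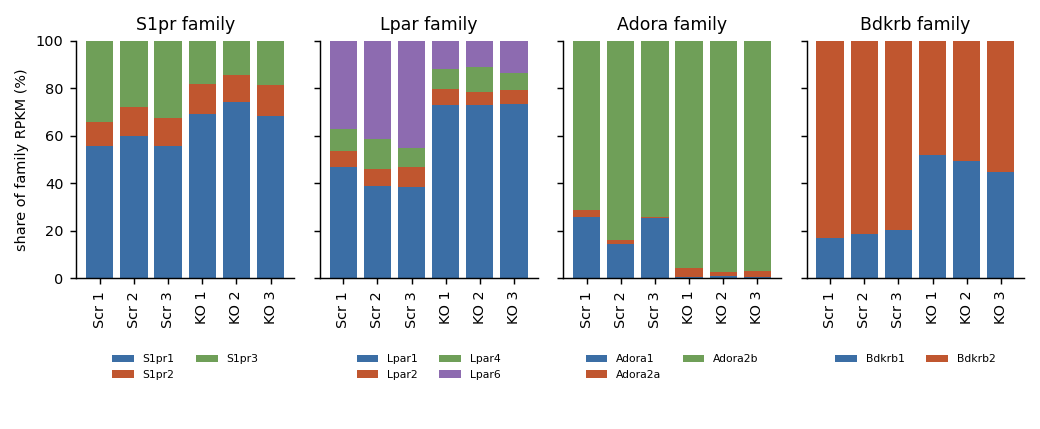
Share of the summed RPKM of a receptor family (y axis, %) that each gene held in each of the 6 libraries, for the S1P, LPA, adenosine and bradykinin receptors. On average Bdkrb1 goes from 18.6% in Scr to 48.7% in MICT1 KO libraries, Lpar1 from 41.3% to 73.1% and Adora1 from 21.7% to 0.556%.

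Among peptide receptors 4 of the 5 tested rose and none fell, against 28.5% higher and 28.3% lower over all genes tested, but the calls of Agtr1a and Vipr1 held in only 2 and 1 of the 6 fits that left out a library. The largest of these rises was that of Bdkrb1 (chromosome 12, 105604091 to 105605511), the bradykinin receptor for kinins without their last arginine. It was at 4.95, 6.49 and 6.11 in the Scr samples and at 57.2, 90.6 and 63.2 in the MICT1 KO samples. The lowest MICT1 KO value was thus far above the highest Scr value, and the log2 fold change was 3.36 (SE 0.40, limma-trend adjusted p = 3.33e-07). Bdkrb2, the bradykinin receptor that many tissues carry at rest, lies 8.8 kb away and was at 64.3, 76.0 and 63.1 against 140, 245 and 205. Its rise was smaller, with a log2 fold change of 1.49 (SE 0.21, limma-trend adjusted p = 3.45e-06). Per length, Bdkrb1 was 18.6% ± 1.74 of the pair in the Scr samples and 48.7% ± 3.55 in the MICT1 KO samples (SD, n = 3).

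Agtr1a, the angiotensin II type 1 receptor, was low at 6.92, 18.5 and 11.2 in the Scr samples and 21.0, 31.6 and 27.0 in the MICT1 KO samples. The log2 fold change of 1.14 (SE 0.45, limma-trend adjusted p = 0.0384) was called, but not without Scr replicate 1 (0.82), Scr replicate 3 (1.13), KO replicate 2 (1.004) or KO replicate 3 (1.11). Vipr1, a Gs-coupled receptor for vasoactive intestinal peptide and PACAP, was at 29.7, 27.8 and 23.4 against 41.0, 39.0 and 62.2. Its log2 fold change was 0.77 (SE 0.32, limma-trend adjusted p = 0.0459), and of the 6 fits that left out a library only the one without KO replicate 2 called it. The others gave 0.84, 0.79 and 0.67 without Scr replicates 1, 2 and 3, and 0.85 and 0.56 without KO replicates 1 and 3. Vipr1 also lost its call under limma-voom and with the replicate number as a block (adjusted p = 0.0570 in each). Calcrl, which binds adrenomedullin or CGRP depending on its RAMP partner, was at 11.9, 12.98 and 9.16 against 10.5, 17.9 and 33.2 and was not called (0.67, SE 0.50, limma-trend adjusted p = 0.261).

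The thrombin receptor F2r (chromosome 13, 95601780 to 95618466) is activated when a protease cuts its outer end. It rose from 586, 547 and 514 in Scr to 1834, 1906 and 1570 in the MICT1 KO samples. The lowest MICT1 KO value was well above the highest Scr value, and among the members its log2 fold change of 1.68 (SE 0.08, limma-trend adjusted p = 3.32e-13) had the lowest adjusted p. Per length it rose from an RPKM of 10.1 to 32.5.

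Adrenergic receptors of the rule were low and none of the 3 tested was called. The α1 receptors Adra1b (-0.17, 95% interval -0.66 to 0.32) and Adra1d (0.03, -1.07 to 1.14) and the α2 receptor Adra2a (0.11, -0.55 to 0.77) had intervals that reach over a change in either direction. Htr1d, a Gi/o-coupled serotonin receptor, was called among the amine receptors. It was at 2.97, 6.49 and 4.07 in the Scr samples and at 21.9, 31.6 and 32.1 in the MICT1 KO samples, few reads but groups that were apart (2.45, SE 0.52, limma-trend adjusted p = 4.09e-04).

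Ackr3 (chromosome 1, 90203980 to 90215724), an atypical receptor that takes up the chemokine CXCL12 and signals through arrestin, had the highest mean RPKM over the 6 libraries of the 73 genes. The RPKM was 65.6 in the Scr samples and 144 in the MICT1 KO samples, and its mean ranked 391 among the genes of the table. The values were 3299, 3998 and 3497 in the Scr samples and 8341, 7777 and 7560 in the MICT1 KO samples. This rise, with groups far apart, had a log2 fold change of 1.14 (SE 0.06, limma-trend adjusted p = 3.90e-12). None of its 6 values was within 0.02 of a whole number of the step that 1 read is worth, and part of its reads may have been shared with another gene. Ccr1, the other chemokine receptor tested, was at 13.8, 17.6 and 19.3 against 10.5, 3.16 and 20.7 and was not called (-0.81, limma-trend adjusted p = 0.241).

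Lgr4 and Lgr6, which bind R-spondins and strengthen Wnt signaling, differed in direction. Lgr4, the higher of the pair per length, fell from 1000, 876 and 910 to 620, 659 and 546 (log2 fold change -0.61, SE 0.09, limma-trend adjusted p = 4.88e-06). Lgr6 rose from 62.3, 59.3 and 46.8 to 103, 95.9 and 116 (0.90, SE 0.22, limma-trend adjusted p = 0.00172). Lgr4 still made up 87.0% ± 2.21 (SD, n = 3) of the RPKM of the pair in MICT1 KO cells, against 95.1% ± 0.644 in Scr cells.

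Adhesion receptors have long outer domains that contact matrix or other cells. Of 10 listed 7 were tested, and 3 were lower and 3 higher (28.3% and 28.5% over all genes tested). Adgrg2 rose the most, from 70.2, 88.1 and 79.4 to 138, 197 and 167 (1.06, SE 0.19, limma-trend adjusted p = 8.01e-05). Adgra2, known as a partner in Wnt signaling of endothelial cells, rose from 484, 456 and 399 to 844, 863 and 832 (0.93, SE 0.09, limma-trend adjusted p = 2.10e-08). In both genes the groups did not overlap. Adgre5, the receptor known as CD97, had the largest fall of the class, from 123, 89.9 and 102 to 49.8, 80.5 and 37.3 (-0.95, SE 0.26, limma-trend adjusted p = 0.00410). The latrophilin Adgrl1 rose (0.48), and Adgra3 (-0.25) and Adgrg1 (-0.23), which binds type III collagen, fell by little. None of the 6 values of Adgrl1 and only 3 of the 6 of Adgre5 were whole numbers of steps. Part of the reads of these 2 genes may have been shared with other genes. The call of Adgra3 ended without Scr replicate 1 (-0.23) or KO replicate 1 (-0.17), and that of Adgrg1 without Scr replicate 2 (-0.21). Adgrb2 was not called (-0.66, limma-trend adjusted p = 0.167).

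Orphan receptors, which have no settled ligand, were the largest class, with 15 of 19 tested. Of these 4 were lower and 5 higher, near the shares over all genes tested (28.3% and 28.5%). Gpr149 (chromosome 3, 62529430 to 62605440) had the largest rise of all tested members on the log2(value + 1) scale, from 26.7, 15.8 and 12.2 in Scr to 243, 184 and 189 in the MICT1 KO samples. The log2 fold change was 3.48 (SE 0.28, limma-trend adjusted p = 1.08e-09), and 3.25 to 3.78 when single libraries were left out. By the ratio of group means without a pseudocount, Bdkrb1 rose more, 12.03-fold against 11.27-fold for Gpr149. Gpr153 (chromosome 4, 152274106 to 152285342) was much higher in level, at an RPKM of 23.4 in the Scr samples and 51.9 in MICT1 KO cells. Its values of 1605, 1521 and 1355 in the Scr samples and 3137, 3426 and 3374 in the MICT1 KO samples were apart (1.15, SE 0.07, limma-trend adjusted p = 5.65e-12). Gpr173 was at 27.7, 16.7 and 7.12 against 35.3, 41.1 and 49.8 (1.41, SE 0.43, limma-trend adjusted p = 0.00806). Without Scr replicate 3, its lowest value, the log2 fold change of Gpr173 was 0.92 and the adjusted p 0.0510.

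The class C orphans of the Gprc5 family, which retinoic acid induces in other cells, went in both directions. Gprc5c (chromosome 11, 114851150 to 114872617) fell from 124, 112 and 173 in Scr to 17.2, 6.32 and 6.22 in the MICT1 KO samples. Its groups were far apart, with a log2 fold change of -3.77 (SE 0.37, limma-trend adjusted p = 2.10e-08). Gprc5a rose from 320, 435 and 273 to 533, 573 and 461 (0.63, SE 0.14, limma-trend adjusted p = 5.45e-04). Gprc5b, the next highest after Ackr3 by mean RPKM, at 99.4 in the Scr samples and 79.3 in MICT1 KO cells, fell from 7335, 7332 and 7926 to 5703, 5901 and 6366 (-0.33, SE 0.06, limma-trend adjusted p = 3.94e-05). Only 2 of its 6 values were whole numbers of steps.

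Gpr157 (-0.81) and Gpr19 (-0.78) were also lower, but the first lost its call without Scr replicate 3 (-0.66) and the second without KO replicate 3 (-0.50). Gpr161, a receptor of the primary cilium that raises cAMP and anchors PKA, was at 191, 239 and 219 against 268, 297 and 252. Its log2 fold change of 0.33 (limma-trend adjusted p = 0.0403) lost its call without Scr replicate 1 (0.25), Scr replicate 3 (0.34), KO replicate 1 (0.34) or KO replicate 2 (0.27). Gpr3, which raises cAMP without an added ligand, was at 34.6, 28.7 and 15.3 against 26.7, 16.9 and 32.1. It was not called (-0.02, 95% interval -0.87 to 0.82).

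The inner membrane proteins that carry receptor names had no member changed 2-fold. Of 8 tested 3 were lower and none higher (28.3% and 28.5% over all genes tested). Gpr180, the highest of them per length at an RPKM of 29.4 in Scr, fell from 925, 902 and 879 to 658, 685 and 763 (-0.36, SE 0.08, limma-trend adjusted p = 6.38e-04). Gpr137b (-0.38) and Gpr137b-ps (-0.47) were both lower, but by its name the latter is a pseudogene copy of the former and none of their values was a whole number of steps, so their reads may not be separable. The call of Gpr137b ended without Scr replicate 1 (-0.34) or KO replicate 3 (-0.29). Gpr107, Gpr108, Gpr137, Gpr155 and Gpr89 were not called, with log2 fold changes from -0.31 to 0.13.

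By main G protein coupling the direction was mixed within most groups. Of 9 receptors that couple mainly to Gq/11, 3 were lower and 3 higher, and of 7 tested for Gi/o, 3 were lower and 2 higher. Of 5 Gs-coupled receptors 2 were higher (Gpr161 and Vipr1) and none lower, but both of these calls were close to the threshold, and 0 or 1 of them remained when a library was left out. The 6 receptors that couple to several G proteins gave 3 rises and 1 fall, and the only tested receptor assigned to G12/13 was Lpar6, which fell. The assignment is by textbook main coupling, and 14 tested members, most of them orphans, were left unassigned. Adhesion receptors and proteins that do not signal through G proteins were kept as groups of their own. Against 28.3% lower and 28.5% higher over all genes tested, these groups are small, and no test was made of any of them.

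Summed per length, the direction of the Gq/11 and of the Gi/o group each rested on a single gene. The Gq/11 receptors summed to an RPKM of 53.3 ± 2.22 in the Scr samples and 10.9 ± 1.47 in the MICT1 KO samples (SD, n = 3). Without Ffar4 the same sum was 4.98 ± 0.517 in the Scr samples and 9.60 ± 1.81 in the MICT1 KO samples, higher and not lower. That rise was the one of the bradykinin receptors, Bdkrb1 (mean RPKM 0.249 in Scr and 3.01 in MICT1 KO samples) and Bdkrb2 (1.09 and 3.19). The remaining Gq/11 receptors went both ways. The Gi/o receptors summed to 41.7 ± 1.04 and 46.9 ± 1.15, and without S1pr1 to 26.6 ± 0.247 and 18.5 ± 0.779, again with the opposite direction. The Gs receptors of the rule summed to 5.16 ± 0.453 in the Scr samples and 6.90 ± 0.645 in the MICT1 KO samples. Those that couple to several G proteins summed to 26.1 ± 3.24 and 55.5 ± 2.51, to which F2r gave the most in both groups. By ligand class the metabolite receptors summed to 73.1 ± 2.64 and 18.0 ± 1.25, and the peptide receptors to 2.03 ± 0.255 and 7.53 ± 1.76. In each of these sums the 3 Scr and the 3 MICT1 KO libraries did not overlap.

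**Figure D4:**
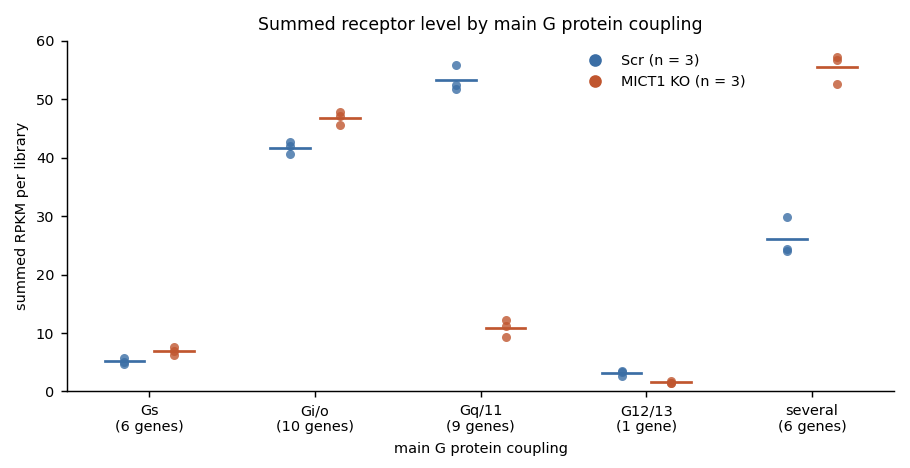
Summed RPKM (y axis) of the receptor genes of each main G protein coupling (x axis) in each library, with a line at the mean of 3 libraries. The Gq/11 sum is lower in MICT1 KO cells, 10.9 against 53.3, and the sum of the receptors that couple to several G proteins is higher, 55.5 against 26.1.

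The 13 members under the filter were Ackr2, Adgrd1, Adgrg3, Adgrg6, Adora2a, Ccr10, Gpr137c, Gpr151, Gpr176, Gpr182, Gpr85, Gprc5d and Htr1b. Their group means lay between 1.96 and 15.8, where a difference of a few reads can change a fold, so no fold is given. The MICT1 KO values of Gpr137c (7.63, 13.7 and 6.22 against 2.97, 1.85 and 4.07) and Gpr182, a scavenger of chemokines (7.63, 7.38 and 17.6 against 4.95, 6.49 and 2.04), lay above the Scr values. The other 11 overlapped between the groups. Over all 13283 genes, 29.8% lay wholly above and 29.7% wholly below the Scr values.

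Receptors that the rule does not name were read from a list of 80, of which 21 were analysed here and 16 tested. Of these 7 were lower and 7 higher, against 28.3% and 28.5% of all genes tested. Adrb1, the β1 receptor, was low in both groups and not called (-0.43, 95% interval -1.28 to 0.41). Tshr, the Gs-coupled thyrotropin receptor, fell from 123, 91.8 and 158 in the Scr samples to 2.86, 1.05 and 9.33 in the MICT1 KO samples (log2 fold change -4.81), and Mrgprf fell by 1.52 on the log2 scale. The largest rises were those of Ccrl2 (1.90), and of Ptgir (1.86) and Ptger4 (1.83), the Gs-coupled receptors for prostacyclin and prostaglandin E2. These 3 genes had Scr means of 6.98, 5.28 and 19.1, few reads. Tshr and Ptgir passed the filter only through the group in which they were high, so they had to differ to be tested.

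Proteins that carry receptors to the surface or change their ligand were read from a list of 13, with 9 tested. Of these 5 were lower and 3 higher (28.3% and 28.5% over all genes tested). Mrap, which brings the ACTH receptor to the membrane and is abundant in fat cells, fell from 703, 837 and 1123 to 7.63, 2.11 and 2.07 (-7.65). It too had to differ to be tested, since no MICT1 KO value reached 10. Reep6 (-1.55) and Reep1 (-0.65) fell, and Rtp4 (2.41), Reep4 (0.37) and Ramp3 (0.27), which makes Calcrl an adrenomedullin receptor, rose.

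Ligands and the enzymes that make or break them were read from a list of 54, with 30 tested. Of these 10 were lower and 11 higher (28.3% and 28.5% over all genes tested). On the LPA axis Enpp2, the autotaxin that makes LPA, fell from 3692, 3421 and 4908 to 532, 308 and 441 (-3.25, SE 0.14, limma-trend adjusted p = 3.85e-14), while Lpar1 rose and Lpar6 fell. On the S1P axis both kinases, Sphk1 (-0.64) and Sphk2 (-0.71), and the lyase that breaks S1P, Sgpl1 (-0.40), fell. Nt5e, the ectonucleotidase that makes adenosine, fell with Adora1, from 121, 141 and 125 to 6.67, 17.9 and 10.4 (-3.46, limma-trend adjusted p = 2.07e-08). Agt, the angiotensin precursor, fell (-3.74), while Agtr1a and Ren1 (2.95) rose. The call of Agtr1a held in only 2 of the 6 fits that left out a library. Ren1 had a Scr mean of 7.04, and its Scr values were not whole numbers of steps.

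Among the listed proteases, Plau, the urokinase, rose from 90.01, 114 and 99.7 to 849, 780 and 681 (2.92, SE 0.13, limma-trend adjusted p = 7.94e-14), Plat, the tissue plasminogen activator, by 1.42 on the log2 scale, and the serine protease Prss23 by 1.89. F3, the tissue factor, a cofactor that starts thrombin formation, rose by 1.19. Ace, which makes angiotensin II, was not called (0.55, limma-trend adjusted p = 0.501). Cxcl12, the ligand that Ackr3 takes up, rose from 1294, 1102 and 841 to 2933, 3218 and 3582 (1.60, SE 0.11, limma-trend adjusted p = 4.58e-11). The kininogens Kng1 (0.57, adjusted p = 0.338) and Kng2 (0.18, adjusted p = 0.740) were not called by limma-trend. Adrenomedullin, Adm (0.61), and Adm2 (0.57) rose, while Calca (-0.93, limma-trend adjusted p = 0.0454), the gene of CGRP, was lower at a Scr mean of 31.5, a call that 5 of the 6 fits leaving out a library did not keep. RNA levels do not give the amount of any ligand, receptor protein or signal.

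**Figure D5:**
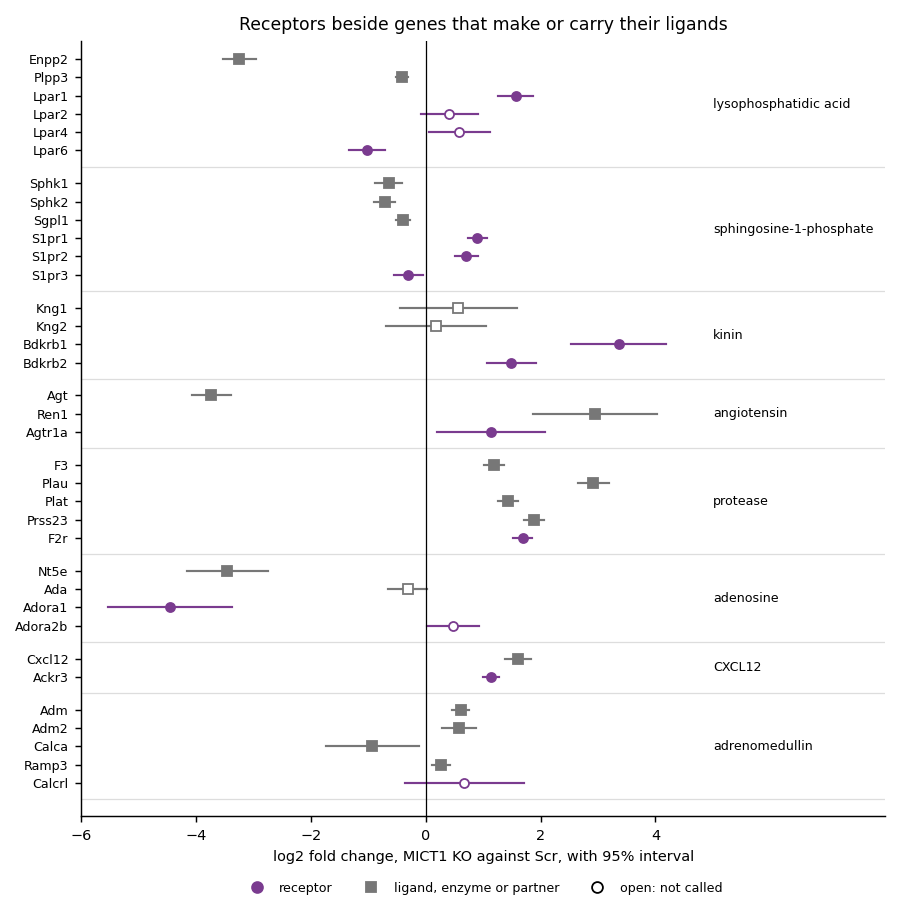
Log2 fold change (x axis, MICT1 KO against Scr, on the log2(value + 1) scale) of receptors (circles) and of genes that make, break or carry their ligands (squares), by ligand, with lines for the 95% interval and open symbols for genes that were not called. Enpp2, Agt and Nt5e lie far to the lower side, while Plau, Ren1 and Bdkrb1 lie far to the higher side.

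Leaving out each library in turn tested how far the calls rest on one library. Of the 39 called members 28 kept their call in all 6 of these fits, and of the 18 with at least a 2-fold change 16 did, with Agtr1a and Gpr173 as the exceptions given above. Those 18 were called under every other setting in which they were tested.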

How the data were processed

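Gene expression was read in 6 RNA-seq libraries, 3 Scr and 3 MICT1 KO, mapped to groups by the sample labels. Per the methods, the authors made strand-specific paired-end libraries and aligned reads with Partek software to NCBI38/mm10, and the submitters' processing notes name Partek, STAR and DESeq2 with no role, order or version. The gene annotation and the normalization are not given in the sources used here. The deposited table holds a normalized signal per gene: for each library, 88.8% to 90.4% of its values below 20 lay within 0.01 of a whole number of one step, which gives 15445812 to 17925628 reads per library. Since the rest were not whole, no count model was used. Values on the log2(value + 1) scale entered limma-trend (limma 3.58.1, R 4.3.3) with no covariate, for genes that reached a value of 10 in 3 or more libraries, at an adjusted p of 0.05 (Benjamini-Hochberg). The functions were tested on simulated data. RPKM used summed library values and GENCODE vM21 exon lengths, and positions and promoters are from RefSeq on GRCm38.

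The members, ligand classes, couplings and gene lists were chosen with earlier results of these data known. Genes were named when called with at least a 2-fold change, when among the 5 highest by mean RPKM, as the largest rise and fall of a ligand class, as the 3 largest called rises and falls of a companion list, or as ligand, enzyme or RAMP of a named member. Of the genes so chosen, 2 are not reported here by name and stay in the counts. Others, among them members near the threshold, were named after their values were seen. Alternatives were library size or the trimmed mean of M values as scaling, limma-voom, no filter, or genes that reached 4 CPM or 4 RPKM, pseudocounts of 0.5 and 5, a block for the replicate number, omission of single libraries, classical receptors only and the threshold of the methods. Replicate numbers did not pair the samples. With 3 libraries a group, no group was large enough for an outlier check.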

Additional observations from a re-analysis of the deposited data

How the results depend on the processing

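The direction of the 60 tested members was kept in every alternative with all 6 libraries. The stricter filters tested fewer genes. With a maximum of at least 4 RPKM, 22 members were tested, of which 11 were lower and 9 higher, and the median over members was -0.21. Over all genes tested with a maximum of at least 4 RPKM, 5472 of 8500 were called. That filter left 3 calls among orphan receptors and 0 among amine, nucleotide and peptide receptors, and by coupling 3 for Gi/o, 1 for Gq/11, 0 for Gs and 3 unassigned. Among companion lists it left 3 calls for the other receptors, 0 for smooth muscle and 1 for Schwann cells and neurons. With a maximum of at least 4 CPM the median was -0.18, with 0 amine, 1 nucleotide, 2 peptide, 3 Gq/11, 1 Gs and 1 Schwann cell and neuron calls. With no filter, over 73 members, it was 0.15, and over classical receptors alone 0.37, with 3 calls in the group that does not couple to G proteins. At 1.8-fold and an unadjusted p under 0.05, 7 members were lower, with 3 adhesion, 1 nucleotide, 4 orphan and 0 inner membrane calls. By coupling there were then 0 calls for Gs, 2 for several G proteins, 2 for no G protein and 5 unassigned, and among lists 3 accessory, 13 ligand and 3 preadipocyte calls. Limma-voom left 1 nucleotide and 1 Gs call.

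Same-numbered libraries did not deviate together (correlations of -0.024, -0.015 and 0.064), so the replicate numbers do not pair the samples. With the replicate number as a block 7055 genes were called, 1 Gs receptor remained called, and Vipr1 and the companion Calca (adjusted p = 0.0586 from limma-trend) lost their calls, the only changes among members and named genes.

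When single libraries were left out, 16 to 19 members were lower and 16 to 19 higher, with a median between -0.096 and 0.089, 1 to 2 nucleotide, 2 to 3 peptide and 0 to 1 Gs calls. Among members not called, directions turned for Adra1d (-0.29 to 0.35), Adra2a (-0.17 to 0.31), Gpr3 (-0.36 to 0.23) and Gpr63 (-0.72 to 0.020). Of the ligand and enzyme genes named above and not called, the log2 fold changes of Kng2 (-0.22 to 0.47) and Ace (-0.16 to 0.92) also turned. Receptors with values under 20 rest on few reads, and 3 samples of one line per group limit all comparisons.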
